A study of Brassica napus with 27 samples.

Results

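The second short day was compared with the first in leaves of wild-type oilseed rape, Brassica napus cultivar Westar. The 6 libraries compared, 3 of leaves sampled 1 day after transfer from long to short days (SD1) and 3 sampled 2 days after it (SD2), were chosen by their labels from 27 libraries in all. The remaining libraries are 3 of the wild type in long days (LD) and 18 of lines edited with CRISPR/Cas9 in the FAH genes, whose product, fumarylacetoacetate hydrolase, carries out the final step in the breakdown of tyrosine. The single line is mutant in BnaA06FAH and the double line in both BnaA06FAH and BnaC05FAH, and each was sampled in LD, at SD1 and at SD2 with 3 libraries per group. The study asked which transcripts accompany cell death in the lines under short days, and the wild type is its control.

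Plants of each genotype germinated on MS medium and then grew in soil, both in long days, before the transfer. The growth protocol in the labels gives long and short days the same light period, so the length of the short day is not known from it. No wild-type leaves kept in long days were sampled on the days of SD1 and SD2, so plant age, sampling day and day length cannot be told apart. The sources used here do not give the hour of sampling. Whether replicates came from separate plants is not in the labels either, so every p-value below reflects the spread among libraries, which may be technical.

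When days shorten, leaves receive less light for carbon fixation and draw on starch at night, and the phytochromes, cryptochromes and circadian clock reset daily gene expression. Nitrate reductase and the enzymes of flavonoid synthesis are textbook examples of leaf genes switched on by light. Age, shade and sugar shortage also act on transcription factors of the WRKY and NAC families, several of which regulate senescence and defence in Arabidopsis.

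Total counts in the 6 libraries ran from 52411453 to 56838689, and 71115 to 73495 genes had at least 1 count. Correlations of log2 counts between replicates were 0.928 to 0.943. Of 72039 genes tested, 479 carry a gene name, so those named here are a small part of the leaf transcriptome. None of the clock, nuclear photosystem and Rubisco, tyrosine degradation, mesophyll or root genes sought by name was among them, so the label of leaf could not be checked through mesophyll markers.

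On the first principal component of the 9 wild-type libraries, which held 36.7% of the variance of the 5000 most variable genes, the LD libraries lay at -43.8, -114.3 and -135.4. The SD1 libraries lay at 6.43, 44.3 and 15.8, and the SD2 libraries at 96.1, 54.8 and 76.1. The stages thus lay in the order LD, SD1, SD2 with no overlap. On the second component, with 15% of the variance, SD2 replicates 1 and 3 lay at -49.6 and -78.2, whereas SD2 replicate 2 lay at 19.6, within the range of the SD1 libraries (16.4 to 83.3).

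**Figure D1:**
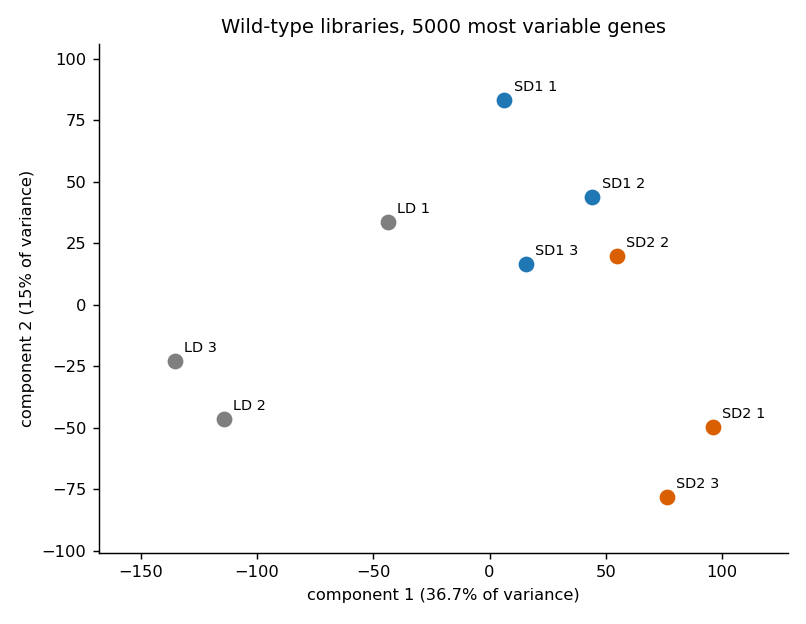
Principal components of the 9 wild-type libraries, with component 1 (36.7% of variance) on the x axis and component 2 (15%) on the y axis; each point is a library, labelled by stage and replicate. SD2 replicate 2, at 54.8 and 19.6, is nearer to the SD1 libraries than SD2 replicates 1 and 3 are.

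Between SD1 and SD2, 2 of 72039 genes passed an adjusted p of 0.05 in edgeR's quasi-likelihood test with Benjamini-Hochberg adjustment, 1 higher and 1 lower at SD2. That is 0.00278% of the genes tested, and neither gene is named. The count was also 2 without SD2 replicate 2, 1 without SD1 replicate 1, SD1 replicate 3 or SD2 replicate 3, and 0 without SD1 replicate 2 or SD2 replicate 1. Among the 479 named genes, edgeR called 0. At an unadjusted p under 0.05 there were 7268 genes (10.1%), and of the named genes 44 were higher and 34 lower. DESeq2, the alternative test, called 371 genes (0.515%), of which 214 were higher, 157 were lower and 10 are named. In 60 of its 371 calls, 1 of the groups had 0 counts.

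The gene that rose, LOC106385345, was at 5.11, 7.19 and 8.19 counts-per-million (CPM) in the SD1 libraries and at 29.9, 27.7 and 20.3 CPM in the SD2 libraries. In LD its mean was 5.16 CPM, close to SD1. Its log2 fold change was 1.93 ± 0.28 (SE, n = 3 per group; edgeR adjusted p = 0.0184). The call held in 6 of 15 alternative analyses, and the highest adjusted p among them was 0.417. It was lost when any library but SD2 replicate 3 was left out, with log2 values of 1.75 to 2.08.

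The gene that fell, LOC106346389, had 7.69, 7.91 and 7.15 CPM at SD1 and 1.33, 2.20 and 1.80 CPM at SD2, after a mean of 11.6 CPM in LD. Its log2 fold change was -2.10 ± 0.27 (SE, n = 3 per group; edgeR adjusted p = 0.00757). This call held in 9 of 15 alternatives, with a highest adjusted p of 0.325. It was lost without SD1 replicate 2, SD2 replicate 1 or SD2 replicate 3, where the log2 values were -2.06, -1.92 and -2.11. For both genes, the 3 libraries of a group did not overlap with those of the other group, and neither gene was called in a fit of the 6 libraries alone (adjusted p = 0.0703 for LOC106346389 and 0.0889 for LOC106385345).

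Most differences between the days were small. Of 30007 genes with at least 5 CPM in the higher group, 1437 differed by more than 2-fold and the median absolute log2 difference was 0.25. The median signed log2 fold change of all tested genes was 0.01. All SD2 libraries lay above all SD1 libraries for 6188 genes (8.59% of those tested) and below them for 6077 (8.44%). Among named genes these counts were 50 (10.4%) above and 65 (13.6%) below. Counts for each gene group below stand against these shares of named genes. Of genes with at least 5 CPM, 10.4% lay above and 10.4% below, and of the 276 named genes at that level, 32 lay above and 45 below.

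**Figure D2:**
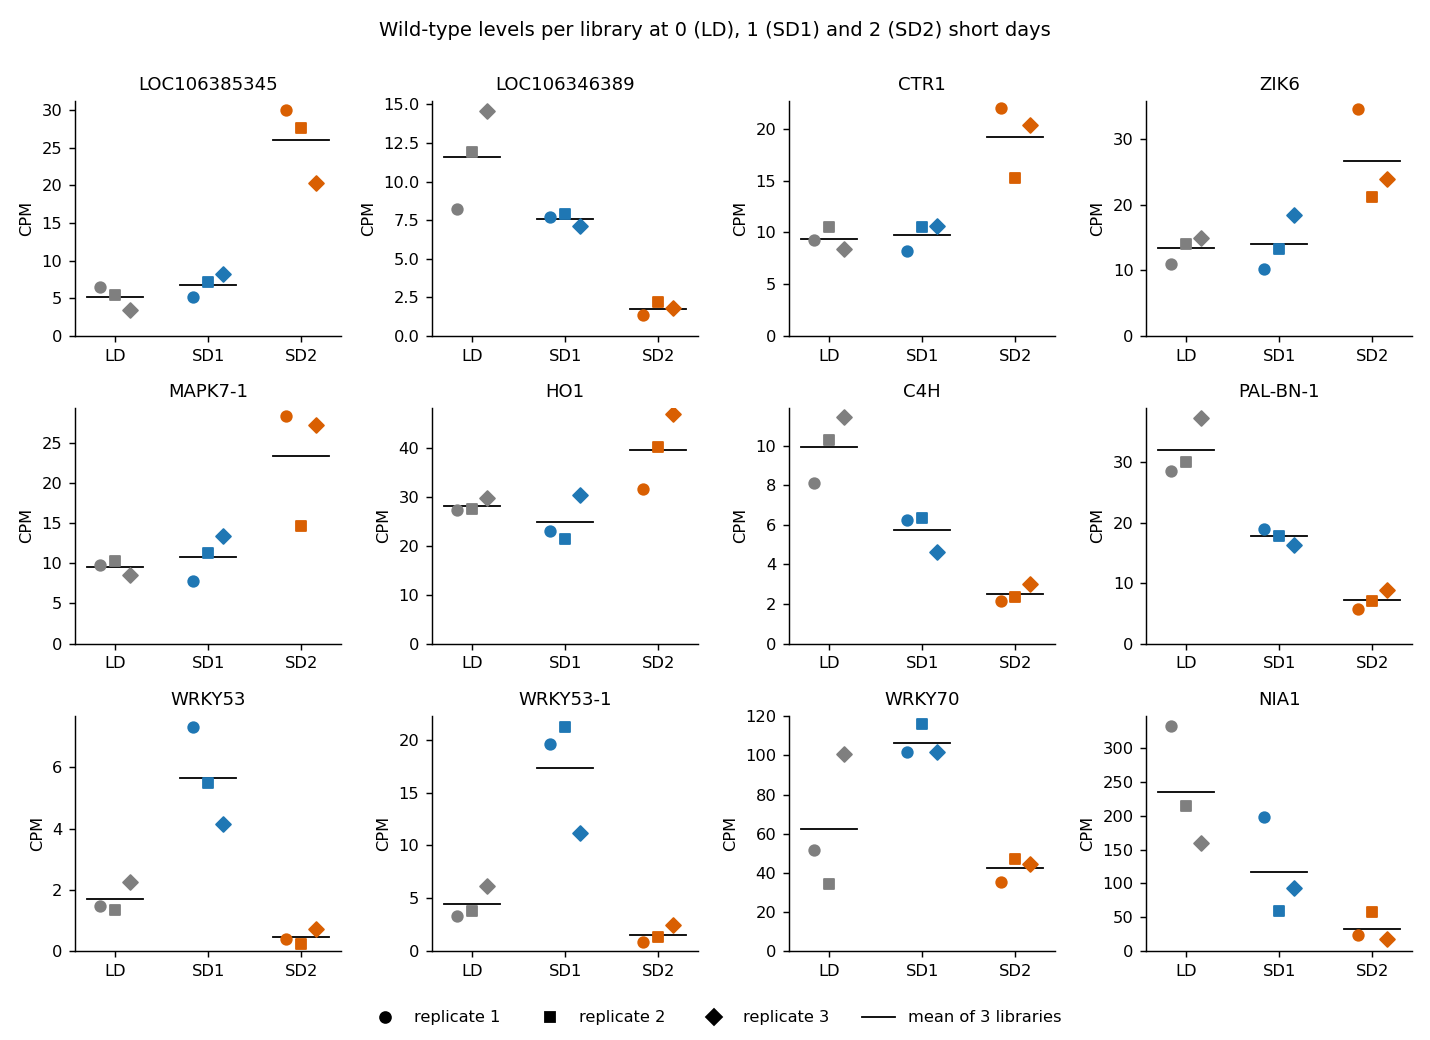
CPM per wild-type library (y axis, linear, from 0) at LD, SD1 and SD2 for both called genes and 10 named genes. Symbols mark replicate numbers, which showed no pairing of libraries, and lines are means of 3 libraries. CTR1 lay at 8.17 to 10.6 CPM at SD1 and 15.3 to 22 at SD2, and WRKY53-1 at 11.2 to 21.2 at SD1 and 0.90 to 2.49 at SD2.

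The 6 named genes of smallest p with higher SD2 values and at least 5 CPM include the kinases CTR1, ZIK5, ZIK6 and MAPK7-1, and none passed. Signalling kinases are common among the 479 named genes tested. The kinase cascades hold 35 of them, the CBL and CIPK group 24 and the CPK group 12. CTR1, whose Arabidopsis counterpart is the kinase that holds ethylene signalling off, had 8.17, 10.5 and 10.6 CPM at SD1 and 22, 15.3 and 20.3 CPM at SD2. Its groups did not overlap, and its log2 difference was 0.98 ± 0.18 (edgeR adjusted p = 0.240, range over the alternatives 0.000296 to 0.930). ZIK6, a member of the WNK kinases that lack the usual catalytic lysine, was at 10.2, 13.2 and 18.4 CPM and then at 34.6, 21.1 and 24.0 CPM. A second WNK kinase, ZIK5, had a log2 difference of 0.72 ± 0.22, also with no overlap.

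MAPK7-1, a mitogen-activated protein kinase, had 7.84, 11.3 and 13.4 CPM at SD1 against 28.3, 14.6 and 27.2 CPM at SD2. Replicate 2 was the lowest SD2 library for this gene, as it was for CTR1, ZIK6 and ZIK5. Over the 35 tested members of the mitogen-activated and related kinase cascades, SD2 lay above SD1 without overlap in 5 (14.3%). It lay below in 1 (2.86%), MPK3. The median of the family was 0.02 against 0.01 for all genes, with 19 positive and 16 negative values. CTR1 also belongs to the 5 ethylene genes, where 2 lay above (the other is acs6, which makes the ethylene precursor, with a log2 difference of 0.29) and 2 below, both copies of the response factor ERF2.

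Calcium sensors of the CBL family and the CIPK kinases they bind had a median log2 difference of 0.28 over 24 members. Without overlap, 5 (20.8%) lay above and 1 (4.17%) below, against 10.4% and 13.6% of named genes, and 0 were called. CBL3.1 was at 10.9, 10.2 and 9.42 CPM at SD1 and at 14.6, 12.7 and 15.1 CPM at SD2. CIPK23.1, whose Arabidopsis counterpart regulates nitrate and potassium uptake, was at 21.4, 23.7 and 25.3 CPM and then at 40.5, 26.6 and 31.5 CPM. CIPK2.1 had a log2 difference of 0.56 ± 0.24. In these 3 genes every SD2 library lay above every SD1 library, but by less than 2-fold in the mean. Calcium-dependent kinases of the CPK family were evenly split, with 3 of 12 (25%) above and 3 (25%) below. Of those below, CPK34.1 had 17, 6 and 4 counts at SD1 and 0 in each SD2 library, too few for a fold.

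HO1, heme oxygenase, which makes the precursor of the phytochrome chromophore, was at 22.9, 21.4 and 30.3 CPM at SD1 and 31.5, 40.1 and 46.8 CPM at SD2. The groups did not overlap (log2 difference 0.66 ± 0.17). Among 9 tested genes of light signalling and flowering time, none lay above and 1 lay below, a gene named for the floral integrator AGL20 (LOC106438253) at -0.40 ± 0.44. A second AGL20 gene (LOC106450890) was at 0.54, with overlapping libraries. The median of these 9 genes was -0.08. The 2 genes of the floral repressor SVP had log2 differences of -0.30 (LOC106446430) and 0.00 (LOC106368680), and STO-2, a B-box protein of light signalling, one of -0.30, all with overlapping libraries.

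In the phenylpropanoid pathway, which leads to lignin and flavonoids, 1 gene of each of the first enzymes lay lower at SD2 without overlap, and the other copies overlapped. PAL-BN-1, phenylalanine ammonia-lyase, was at 19.0, 17.9 and 16.3 CPM at SD1 and at 5.67, 7.11 and 8.88 CPM at SD2, after a mean of 32.0 CPM in LD. C4H (LOC106348398), cinnamate 4-hydroxylase and the next enzyme, was at 6.23, 6.34 and 4.65 CPM and then 2.16, 2.37 and 3.00 CPM, after 9.96 CPM in LD. Neither gene's groups overlapped, and the log2 differences were -1.30 ± 0.32 and -1.19 ± 0.28. They missed the threshold (adjusted p = 0.299 for both; range over the alternatives 0.0211 to 0.930 for C4H). The other genes for these enzymes, PAL1-2, PAL2-1, PAL2-2 and a second C4H (LOC106446415), had log2 differences of -0.23, -0.38, -0.57 and -0.28.

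Chalcone synthase, which commits the pathway to flavonoids, was already at low values at SD1. CHSB1 had a mean of 39.9 CPM in LD, 3.32, 9.48 and 3.80 CPM at SD1 and 0.91, 2.79 and 1.63 CPM at SD2. Its second copy, Chs, had overlapping SD1 and SD2 libraries, at 1.92, 5.84 and 2.14 CPM against 1.04, 2.38 and 1.36 CPM. DFR, dihydroflavonol reductase, had 0 counts in the SD1 libraries and 10, 57 and 0 counts at SD2, so 1 library held most of them. Over the 15 enzymes of the pathway the median was -0.35, with 4 (26.7%) below without overlap, 1 (6.67%) above and 0 called. The 1 above was BnF3'H-1, with a log2 difference of 7.32, and 1 of those below was CCR2 (LOC106429710), with -6.63. A second CCR2 gene (LOC106381558), with overlapping libraries, was at 5.84. Of the 15, 4 had 0 counts in every library of 1 group, DFR among them, and for these the size of a fold is not measured. Copies with similar sequence can share reads, and the sources used here do not say how the authors' counting divided them, here and for the WRKY pairs below.

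**Figure D3:**
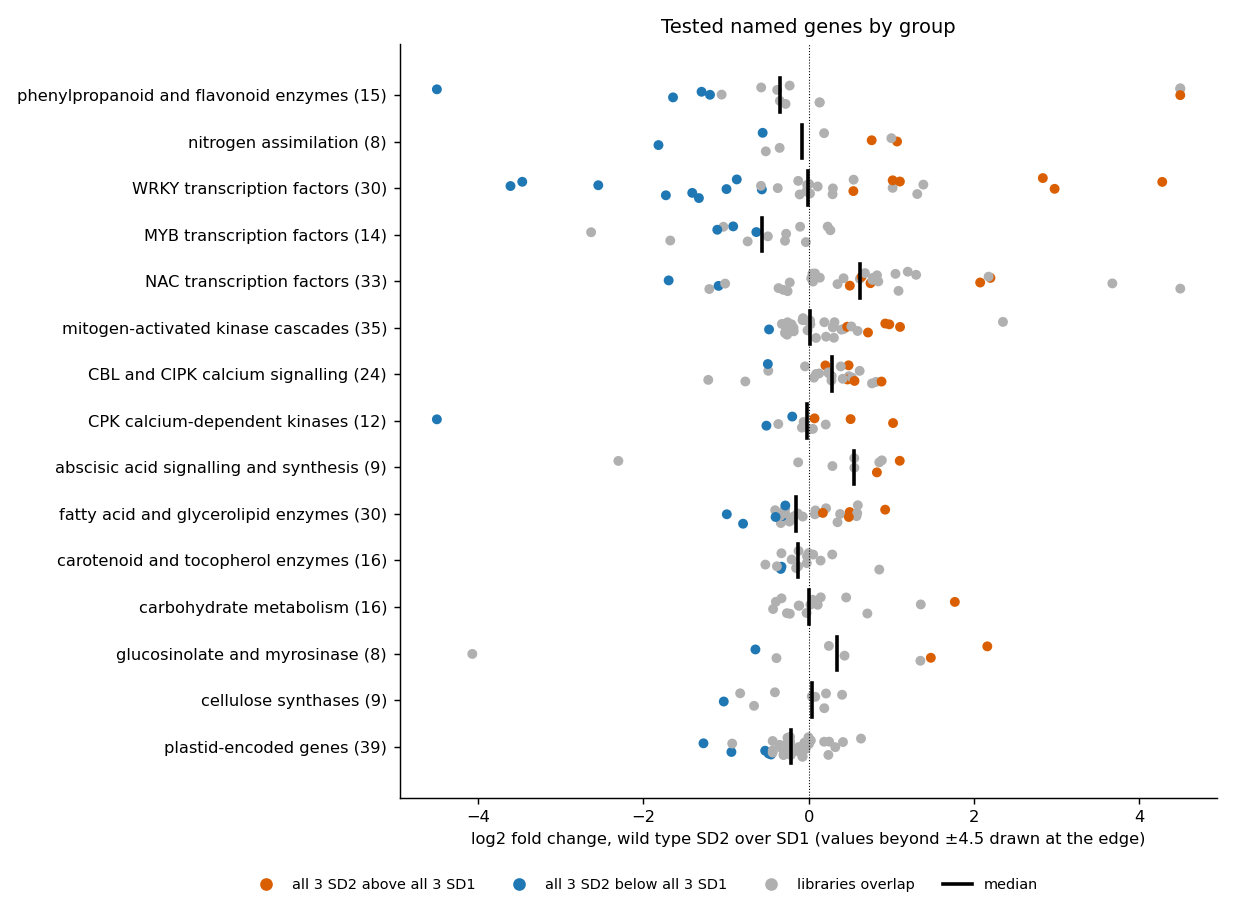
Log2 fold change, SD2 over SD1 in the wild type, of each tested member of a selection of the gene groups, with the number of tested members in brackets. The x axis is the log2 fold change, with values beyond 4.5 drawn at the edge. Colours mark genes whose 3 SD2 libraries all lie above or all below the 3 SD1 libraries, and vertical bars are group medians. The medians of the groups drawn run from -0.56 (MYB) to 0.62 (NAC), and no gene drawn was called. Some smaller groups not drawn had medians outside that range.

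WRKY transcription factors were divided, with 9 of 30 members (30%) below without overlap, 6 (20%) above and a median of -0.01. WRKY53, which promotes leaf senescence in Arabidopsis, had 7.32, 5.49 and 4.16 CPM at SD1 and 0.42, 0.24 and 0.73 CPM at SD2. The similarly named WRKY53-1 had 19.6, 21.2 and 11.2 CPM at SD1 and 0.90, 1.32 and 2.49 CPM at SD2. These were the widest gaps among the named genes listed by smallest p, with log2 differences of -3.61 ± 0.97 and -3.47 ± 0.99. In LD their means were 1.70 and 4.44 CPM, so the SD1 libraries stood above both other stages.

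WRKY70, which acts between salicylate and jasmonate signalling in Arabidopsis, was at 102, 116 and 101 CPM at SD1 and at 35.2, 47.3 and 44.7 CPM at SD2. The similarly named WRKY70-1 was at 52.2, 59.8 and 49.8 CPM and then 20.2, 34.3 and 26.8 CPM. WRKY40, a repressor in defence and abscisic acid responses, was at 9.51, 7.76 and 7.31 CPM and then 0.64, 2.03 and 1.54 CPM. None of the 3 overlapped between days and none passed. The other members below were WRKY11, WRKY11-1, WRKY33-1 and WRKY40-1, most of them relatives of Arabidopsis genes that act in defence.

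In the other direction, WRKY28-1 was at 0.37, 0.29 and 0.16 CPM at SD1 and at 2.23, 2.01 and 2.27 CPM at SD2, a log2 difference of 2.98 ± 0.76. WRKY21-1 and WRKY42 lay higher by 1.11 and 1.02 on the log2 scale, and WRKY28.2, WRKY36 and WRKY69.2 completed the members above. DESeq2 called WRKY28-1, WRKY53 and WRKY53-1. The edgeR adjusted p was 0.303 for WRKY28-1.

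The NAC family, which includes senescence regulators, had the highest median of the groups with at least 10 tested members, 0.62 over 33 members. Summed over the 33, its transcripts overlapped between days, at 161 to 179 CPM at SD1 and 160 to 232 CPM at SD2. All SD2 libraries lay above SD1 in 5 NAC genes (15.2%) and below in 2 (6.06%), with 0 called. NAC51.1 was at 5.32, 7.74 and 5.42 CPM at SD1 and 10.3, 7.82 and 10.7 CPM at SD2. NAC69-1.1 was at 0.42, 1.55 and 1.75 CPM and then 5.83, 1.81 and 8.14 CPM. In both genes SD2 replicate 2 lay only just above the highest SD1 library.

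MYB factors lay on the low side at SD2. The median over 14 genes was -0.56, and 12 had negative values. MYB44 was at 37.2, 48.7 and 48.9 CPM at SD1 and 15.7, 25.9 and 30.0 CPM at SD2. MYB73.1 was at 22.3, 35.4 and 34.1 CPM and then 19.9, 19.9 and 19.4 CPM. With MYB108-1.1 these were the 3 members (21.4%) below without overlap, and none lay above.

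Abscisic acid genes, 9 of them tested, had a median of 0.55, with 2 (22.2%) above without overlap and none below. Those were the bZIP factors ABI5.1 and AREB3.2, the second at 1.25, 1.05 and 0.99 CPM at SD1 and 1.76, 2.18 and 1.91 CPM at SD2. The protein phosphatases that hold the pathway off had overlapping libraries. HAB1.1 (LOC106354239) was at 22.9, 34.2 and 22.8 CPM at SD1 and 46.9, 25.6 and 44.8 CPM at SD2. ABI1.1 was at 36, 67.7 and 36.8 CPM and then 83.0, 49.7 and 73.5 CPM. In both, SD2 replicate 2 lay inside the SD1 range. Another HAB1.1 gene (LOC106447263) had a log2 difference of 0.29, and HAI3.1 one of -2.30.

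Nitrate reductase, the first enzyme of nitrate assimilation, showed opposite directions in its copies. NIA1 was at 199, 59.4 and 94.0 CPM at SD1 and at 23.5, 57.7 and 18.7 CPM at SD2, after a mean of 235 CPM in LD. Its groups were barely apart, since SD1 replicate 2 and SD2 replicate 2 nearly met. NIA2, at 1.31, 1.43 and 0.94 CPM at SD1, was at 3.33, 2.22 and 2.18 CPM at SD2, against a mean of 9.21 CPM in LD. Neither passed (adjusted p = 0.336 and 0.513).

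Glutamine synthetase, which fixes ammonium, also pointed both ways. A gene named gln (LOC106361531) was at 299, 281 and 312 CPM and then 181, 207 and 219 CPM. The other genes of that name overlapped and were also lower, with log2 differences of -0.52 (LOC106424972) and -0.35 (LOC106381340). Of the 3 GLN1.3 genes, LOC106439570 was at 4.5, 3.46 and 4.02 CPM and then 9.57, 5.14 and 5.59 CPM, without overlap (log2 difference 0.76). The other GLN1.3 genes overlapped and were also higher, with log2 differences of 1.00 ± 0.38 (LOC106452023) and 0.19 (LOC106435967). Over the 8 nitrogen assimilation genes, 2 (25%) lay above, 2 (25%) below and 0 were called, with a median of -0.08.

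Among metabolic genes, 30 of fatty acid and glycerolipid synthesis had a median of -0.15. Without overlap, 4 (13.3%) lay above and 5 (16.7%) below, near the 10.4% and 13.6% of named genes. DGAT, which makes triacylglycerol, was at 2.90, 2.71 and 2.07 CPM at SD1 and 6.05, 4.54 and 4.01 CPM at SD2. FAD72, a plastid desaturase that makes trienoic fatty acids, was at 101, 63.6 and 69.4 CPM and then 32.3, 54.6 and 30.8 CPM. These lay in opposite directions and neither passed (adjusted p = 0.309 and 0.333). Carotenoid and tocopherol enzymes had a median of -0.12 over 16 genes, with none above and 2 (12.5%) below, near the share of named genes.

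Carbohydrate genes had a median of 0.00 over 16, with 1 above, FBPase, a fructose bisphosphatase, at 0.44, 0.86 and 0.85 CPM and then 3.19, 2.31 and 1.87 CPM. Glucosinolate genes had a median of 0.34 over 8 members, with 2 above without overlap and 1 below, Nit2, a nitrilase, at -0.64. ESP, which steers glucosinolate breakdown towards nitriles, was at 52.7, 146 and 39.4 CPM at SD1 and 276, 509 and 281 CPM at SD2. CYP83B1-5, of indole glucosinolate synthesis, was at 4.40, 15.8 and 11.3 CPM and then 26.0, 29.1 and 32.9 CPM. The spread within SD1 was wide for both, and their adjusted p-values were 0.443 and 0.399.

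Of 5 reactive oxygen enzymes, 1 lay above and 1 below without overlap. They are the gene named catalase, with a log2 difference of 0.79 ± 0.31, and the gene named peroxidase, with -0.54 ± 0.24. Hsc70, a cytosolic chaperone and the 1 of 5 chaperone genes without overlap, was at 511, 332 and 251 CPM at SD1 and 211, 239 and 136 CPM at SD2. BI-1, an inhibitor of cell death, was at 19.2, 14.9 and 17.6 CPM and then 19.7, 19.8 and 23.2 CPM, also without overlap. Both PAP17 genes, purple acid phosphatases induced by phosphate shortage and senescence in Arabidopsis, lay lower without overlap, by -1.34 ± 0.47 and -1.04 ± 0.37.

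IPT9-3, a tRNA isopentenyltransferase of the cytokinin family, was at 11.3, 7.27 and 6.48 CPM and then 3.47, 4.97 and 3.14 CPM. Of 7 cytokinin genes, 2 (28.6%) lay below without overlap and none above. CLO3, a caleosin of lipid droplets, was at 34.1, 37.0 and 42.8 CPM and then 66.1, 39.7 and 85.2 CPM, so its groups overlapped. The 6 boron transporters had a median of -0.56 with 3 (50%) below without overlap.

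Vascular markers, the secondary-wall cellulose synthases CesA4, CesA7 and CesA8, were all lower in value at SD2. Their 4 genes summed to 10.2 to 18.4 CPM at SD1 and 4.10 to 12.6 CPM at SD2, and 0 of the 4 were at 0 in all 6 libraries. Only CesA4.2 had no overlap, at 2.44, 2.97 and 4.27 CPM and then 1.09, 1.29 and 2.38 CPM. Less vascular tissue in a sample and less RNA per cell cannot be told apart in whole leaves, and their part in the phenylpropanoid values was not tested. Of the guard cell and epidermal genes sought by name, only TTG1-1 and TTG1-2 were tested. They summed to 30.1 to 45.8 CPM and then 42.6 to 47.8 CPM, and these 2 genes do not measure the epidermal share. Floral markers, 2 genes tested, summed to at most 0.16 CPM at SD1 and 0.32 CPM at SD2.

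Plastid-encoded transcripts took 0.0147% to 0.0170% of counts in the 6 libraries. Of 39 plastid genes tested, 31 had lower values at SD2. Without overlap, 5 lay below, rbcL and petB among them, and none above. Those below are 12.8%, near the 13.6% of named genes, against 8.44% of all genes tested. Summed over the 39, plastid transcripts were at 139 to 169 CPM at SD1 and 135 to 154 CPM at SD2, so the sums overlapped. The median of the 39 genes was -0.22, 0 had an unadjusted edgeR p under 0.05 and 0 were called. Mitochondrial genes had a median of 0.00 over 26.

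The same step in the lines was used to see whether the wild-type differences differ from theirs. Between SD1 and SD2 edgeR called 1595 genes in the double line (2.21%), 828 higher and 767 lower, and 3 in the single line (0.00416%). The test of the difference itself called 16 genes (0.0222%) for the double line against the wild type and 3 (0.00416%) for the single line. Without SD2 replicate 2 of the wild type, the first count was 299, and without any other of the 6 libraries it was 1. Of the genes called, 1 is named, the aquaporin PIP2.

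PIP2, a water channel of the plasma membrane, was at 40.4, 39.2 and 46.9 CPM at SD1 and at 112, 17.4 and 74.2 CPM at SD2 in the wild type. In the double line its means were 58.1 CPM at SD1 and 7.83 CPM at SD2. The wild-type SD2 libraries lay on both sides of SD1, with replicate 2 lowest. The double line's change was lower than the wild type's by -3.58 on the log2 scale (edgeR adjusted p = 0.0457). That call was lost when any of the 6 wild-type libraries except SD2 replicate 2 was left out, with differences of -3.66 to -3.01.

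Neither gene called in the wild type differed from the lines by that test. LOC106346389 had means of 3.90 and 3.71 CPM at SD1 and SD2 in the double line, and 4.39 and 3.60 CPM in the single line. The adjusted p of the difference was 0.0530 for the double line and 0.133 for the single line. LOC106385345 had means of 7.18 and 12.2 CPM in the double line and 15.3 and 19.7 CPM in the single line, with adjusted p-values of 0.186 and 0.227.

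CTR1 had a log2 difference of -0.43 in the double line and -0.00 in the single line, against 0.98 in the wild type, with an adjusted p of 0.0522 for the double line. WRKY53 and WRKY53-1 had log2 differences of 4.35 and 4.31 in the single line, opposite in sign to the wild type. Those changes within the single line did not pass (edgeR adjusted p = 0.312 for both). In the double line the log2 differences were -1.09 and -0.42, of the same sign as in the wild type. The single line's means were 0.27 and 0.79 CPM at SD1 and 5.59 and 15.8 CPM at SD2, where the standard deviations were 3.62 and 10.8 CPM. The edgeR tests of the single line's change against the wild type's gave adjusted p-values of 0.0825 and 0.106, so neither gene was called.

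**Figure D4:**
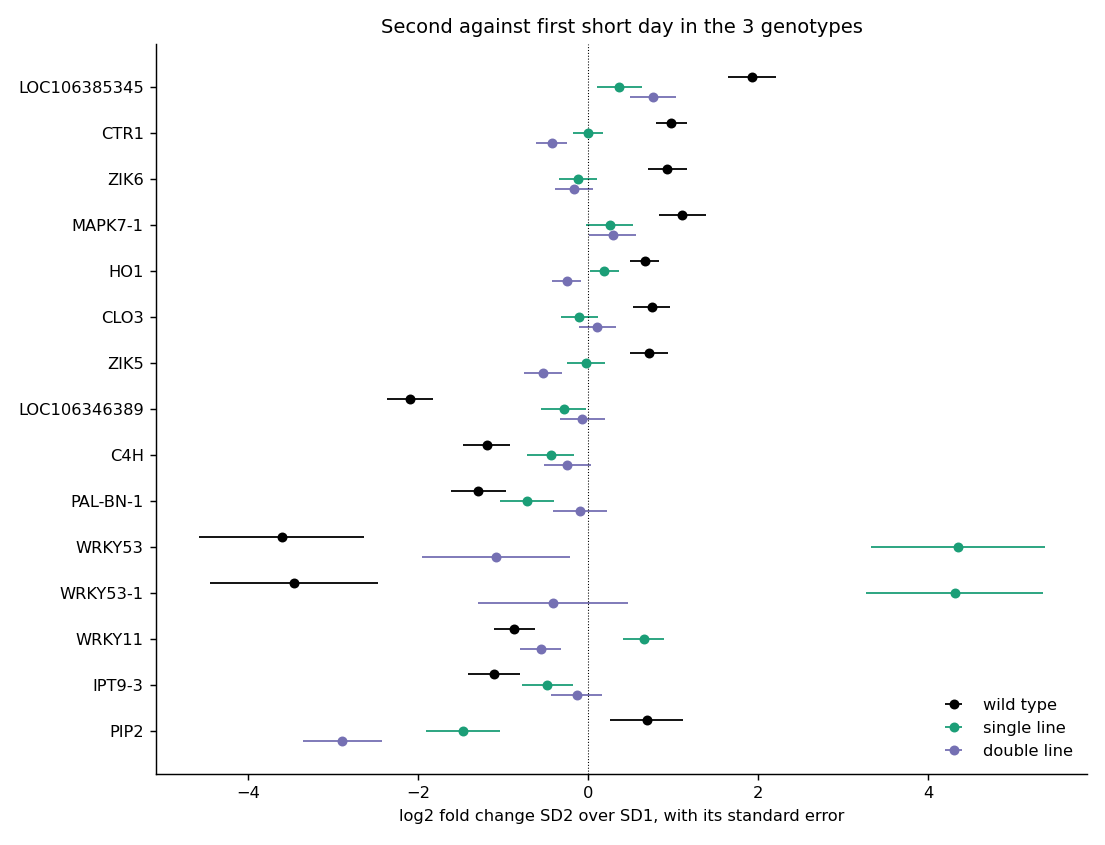
Log2 fold change, SD2 over SD1, with its standard error from the edgeR fit (x axis), for both called genes, 12 named genes and PIP2 in the wild type, single line and double line (3 libraries per group). WRKY53 lies at -3.61 in the wild type and 4.35 in the single line, and PIP2 at 0.69 in the wild type and -2.89 in the double line.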

How the data were processed

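Per the labels, leaf RNA was isolated with TRIzol and made into TruSeq v2 libraries, which were read on an Illumina HiSeq machine. Trim Galore and HISAT2 handled trimming and alignment, per the submitters' processing notes. Tool versions, counting software and genome build: not given in the sources used here. Raw counts per gene were taken as deposited. The authors' deposited FPKM table, by a method not stated, served only as a check of signs with a pseudocount of 0.1, and 14 of 14 genes (the 12 listed by smallest p and both called genes) had the same sign. Of 119532 gene entries, 85976 matched RefSeq's table of Da-Ae genes, and 721 have a name there or in the file. The 1 entry naming no gene, with 2 to 7 counts per library compared, was left out.

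In R 4.3.3, edgeR 4.0.16 kept 72039 genes by its filter per group and fitted one quasi-likelihood model with TMM scaling and robust dispersions to all 27 libraries in 9 groups (18 residual degrees of freedom). Adjusted p-values are Benjamini-Hochberg over all genes tested, with a threshold of 0.05. CPM use TMM-scaled totals, and calls were also made with DESeq2 1.42.0. Errors of fold changes are standard errors, taken as the absolute log2 change divided by the square root of edgeR's F statistic. They thus rest on the spread estimated over all 27 libraries. Median log2 changes set genes at 0 in every library of a group at their fitted value; setting them at a bound from 3 counts per library changed no family median quoted and moved that of all genes from 0.0052 to 0.001. Chi-square values of 34.6 to 53.2 per gene between replicates lie above counting noise, so no 2 libraries were treated as 1.

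Few genes passed, so the text names the 6 higher and 6 lower named genes of smallest p with at least 5 CPM. It also names members from among the 3 of smallest p in each list with at least 5 tested members, marker and organelle lists excepted. Not every list or member so picked is named, and no gibberellin, amino acid transporter or boron transporter gene is. Examples were chosen after their values were seen (CHSB1, Chs, NIA2, WRKY70, WRKY70-1, WRKY40, WRKY11-1, ABI1.1, both PAP17 genes and BI-1). So were the further WRKY, ERF2, MPK3, ABI5.1, GLN1.3, rbcL and petB genes named as lying without overlap. The same holds for the further PAL, C4H, AGL20, SVP, gln, GLN1.3, HAB1.1 and HAI3.1 genes. BnF3'H-1, both CCR2 genes and both TTG1 genes were also named after their values were seen. The members and the 44 lists were chosen with earlier results of these data known, and list patterns were corrected from gene names once the files were open. FAH genes are not analysed here. Alternatives were another scaling, no filter on low counts, dispersions without robust estimation, other sets of libraries, a replicate block and leaving out each library.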

Additional observations from a re-analysis of the deposited data

Results flagged for a closer look

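By edgeR's test of SD1 to SD2 changes against the wild type, 16 genes were called for the double line and 3 for the single. Given here are PIP2, the only named gene, and the most abundant called gene of each line with counts in every group compared. For the aquaporin PIP2, the double line's change minus the wild type's was -3.58 on the log2 scale (adjusted p = 0.0457). For LOC106427417, a gene without a name, it was -3.20 (adjusted p = 0.0397). Its wild-type libraries were at 24.4, 37.5 and 50.6 CPM at SD1 and at 89.3, 36 and 99.0 CPM at SD2. For PIP2 and LOC106427417, SD2 replicate 2 of the wild type lay below at least 1 SD1 library, and both calls were lost when any other library of the 6 was left out or a replicate block was added.

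For LOC106407023, also unnamed, the single line's change minus the wild type's was 4.92 (adjusted p = 0.0309). The wild type was at 3.90, 7.74 and 3.69 CPM at SD1 and 0.64, 1.43 and 0.80 CPM at SD2, without overlap. This call was lost without SD1 replicate 2, without SD2 replicate 1, without SD2 replicate 3 and with a replicate block. The log2 change within the wild type was -2.42 and did not pass (adjusted p = 0.299).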

How the results depend on the processing

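The wild-type count of 2 genes was 4 without the double line's SD2 libraries, 371 with DESeq2, and 0 to 2 when each library was left out in turn (0 without SD1 replicate 2 or SD2 replicate 1). Fits of the 6 libraries and of the 9 wild-type libraries alone also gave 2 calls each, but 0 were shared with the fit of 27 libraries. The 16 genes differing for the double line became 1348 with DESeq2, and 1 to 299 when a library was left out: 299 without SD2 replicate 2 and 1 without any other. The 3 genes differing for the single line became 5 without the double line's SD2 libraries, 421 with DESeq2 and 1 to 4 when a library was left out. The cause of these shifts was not tested. Replicate numbers showed no pairing of the libraries: same-numbered SD1 and SD2 libraries correlated at -0.17, -0.12 and 0.12 in their deviations from group means. Such values, from 3 libraries per group, cannot exclude a pairing. With a replicate block the counts were 1 for the wild type, 0 for the double line's difference and 1 for the single line's, and 0 for the 6 libraries alone with a replicate block. Among 88 genes examined under the alternatives, 1281 of 1308 values kept their direction and side of the threshold, and 1 reversed. That was BIP1A, at 0.14, which ran from -0.15 (without SD2 replicate 1) to 0.28 when a library was left out. Only 2 genes were called to begin with, so the side kept by the uncalled ones says little about stability. The 2 calls held in 9 (LOC106346389) and 6 (LOC106385345) of 15 alternatives. Family medians near 0, such as that of the WRKY genes (0.21 without SD1 replicate 2), are not stable in sign. At these depths counting error matters for genes of a few counts.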
